A study of Homo sapiens with 16 samples.

Results

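The genes described here are transcribed by RNA polymerase III (Pol III) and encode short noncoding RNAs. They are the 7SK RNA gene RN7SK, the signal recognition particle RNA genes RN7SL1 and RN7SL2, RMRP, RPPH1, the vault RNA genes VTRNA1-1, VTRNA1-2 and VTRNA1-3, and the Y RNA genes RNY1 and RNY3. These 10 genes were taken by symbol from the 60605 Ensembl gene identifiers of the deposited count tables, whatever their values, and all 10 were found.

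Pol III makes short RNAs at a high rate, among them transfer RNAs and 5S ribosomal RNA, and its output is known to be restrained by MAF1 under stress. The RNAs considered here serve as structural or catalytic cores of ribonucleoproteins. The 7SK RNA holds the elongation factor P-TEFb in an inactive complex. The 7SL RNA is the backbone of the signal recognition particle, which brings ribosomes making secreted proteins to the endoplasmic reticulum. RMRP and RPPH1 are the RNA components of RNase MRP and RNase P, which cut precursors of ribosomal and transfer RNA. Vault RNAs associate with the vault particle, and Y RNAs bind the Ro60 and La proteins.

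The assay was PRO-seq, in which polymerases engaged on DNA extend their nascent RNA in isolated nuclei and the labelled RNA is sequenced. The cells were LNCaP, an established human prostate cancer line. In batch 1 the groups were mock cells and cells given 6 Gy of ionizing radiation (IR), each with replicate numbers 1 and 2, and each replicate with libraries named t1 and t2, whose meaning the labels do not give. In batch 2 the groups were the DMSO vehicle for 90 min, vehicle with 6 Gy, 10 µM enzalutamide for 90 min, and 10 µM enzalutamide with 6 Gy, each with replicate numbers 3 and 4. Irradiation in batch 2 came 30 min into the treatment and was followed by 60 min of incubation. Enzalutamide is a prostate cancer drug. No label says whether the batch 1 cells received DMSO or how long after IR they were collected. The labels do not say that replicates were separate cultures, so p-values measure the spread between these samples, which may be technical.

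Batch 1 libraries held 3438642 to 9363458 counts and batch 2 libraries 10494563 to 19905824. The t1 and t2 counts of a replicate were summed, which left 12 samples, 2 in each of 6 groups. The luminal prostate markers FOLH1 (972 to 1390 CPM, counts scaled to library size with TMM factors) and HOXB13 (132 to 178 CPM) were present in every sample, while the leukocyte gene PTPRC stayed at or below 0.891 CPM and the basal gene KRT5 at or below 0.742 CPM. The basal gene TP63 (3.13 to 7.37 CPM) and the fibroblast gene COL1A1 (6.88 to 10.99 CPM) were low but not at 0. CDKN1A, a p53 target that responds to radiation, rose by 3.20 on the log2 scale over the 3 IR comparisons (edgeR adjusted p = 3.28e-14), and TMPRSS2, the gene chosen as the check of the drug, fell by 0.58 with enzalutamide (adjusted p = 0.00124).

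Some libraries stood apart for the genes described here. Vehicle replicate 4 and enzalutamide replicate 3 had the highest shares of counts in the 10 genes within batch 2, at 0.0829% and 0.0953%, while the other 6 libraries held 0.0307% to 0.0487%. These were also the deepest libraries of batch 2, with 19469608 and 19905824 counts, and those with the highest share of mitochondrial counts, at 0.934% and 0.875% against 0.570% to 0.714%. In batch 1, 40.8% of the 23335 genes tested had a t2-to-t1 ratio that differed between irradiated and mock cells at an edgeR adjusted p under 0.05, although 0 genes (0%) differed between t2 and t1 on average (129 at an unadjusted p under 0.05). CDKN1A separated the treatments in each library, with 36.8 to 58.0 CPM in the 4 mock libraries and 525 to 601 CPM in the 4 irradiated ones. Values without these libraries are given beside the results that they moved most. Leaving out vehicle replicate 4 and enzalutamide replicate 3 together was not planned and followed from their high values for these genes.

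Levels were compared between genes per kilobase of RefSeq gene length (assembly GRCh38.p14). As the mean of the 6 groups, RN7SL2 stood first at 986 CPM per kb, followed by RMRP at 413 and RN7SL1 at 402. The vault RNA genes were spread widely, with VTRNA1-3 at 356, VTRNA1-2 at 228 and VTRNA1-1 at 85.2 CPM per kb. RPPH1 had 103, RNY1 41.8, RN7SK 28.8 and RNY3 24.0 CPM per kb. RMRP and RN7SL1 did not differ beyond their spread over groups, which ran from 250 to 670 CPM per kb for RMRP and from 237 to 558 for RN7SL1. The order depended on the batch: VTRNA1-3 was 20.5 times and VTRNA1-1 13.6 times as high in batch 1 as in batch 2 by mean CPM. RNY1 and RPPH1 were 4.65 and 4.58 times and VTRNA1-2 3.69 times as high in batch 1, whereas RN7SK was nearly level at 0.965 times. Batch and any difference in cell handling or library preparation cannot be told apart in this ratio.

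**Figure D1:**
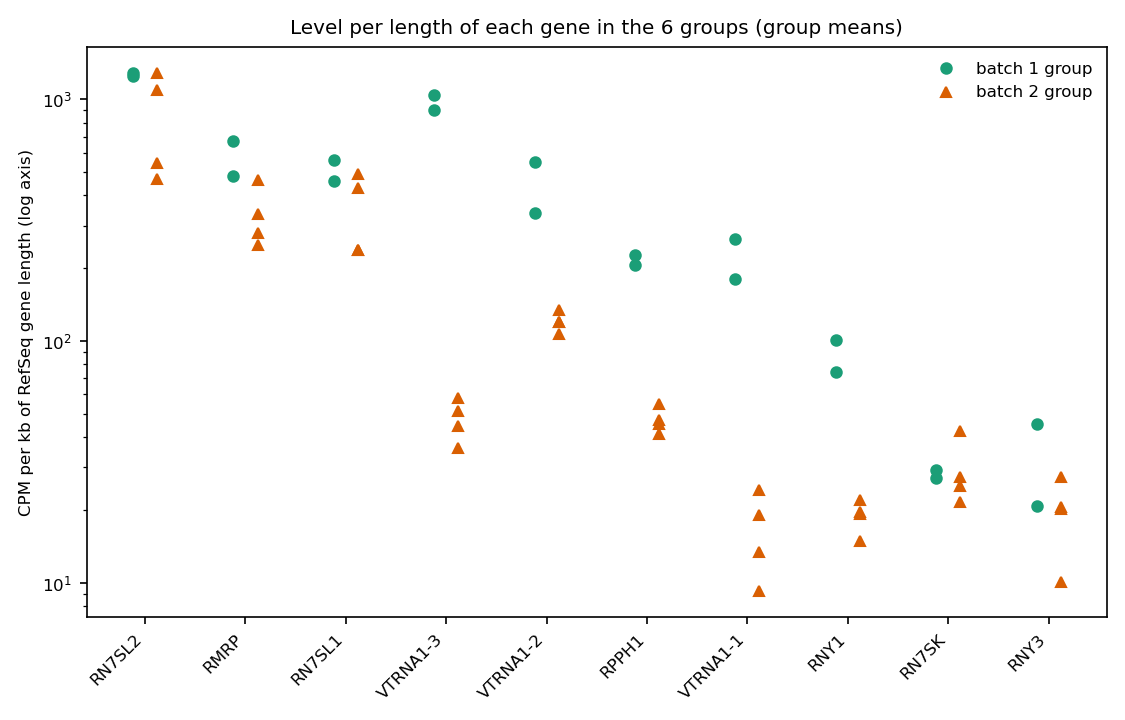
Level of each gene as CPM per kilobase of RefSeq length (log axis), 1 point per group mean, with batch 1 groups as circles and batch 2 groups as triangles. VTRNA1-3 and VTRNA1-1 separate by batch, at 20.5 and 13.6 times higher mean CPM in batch 1, while RN7SK does not, at 0.965 times.

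How much of each gene family the named genes carry bears on these levels, since the handling of reads that match several places is not given in the sources used here. RN7SK has 293 copies or pseudogenes in the table, 236 of them with counts, and RN7SK itself held 14.7% to 39.9% of the family's counts in a sample. RN7SL1 and RN7SL2 together held 57.0% to 90.0% of the counts of a family with 678 further copies. The share was 53.3% to 100% for RNY1, 62.5% to 100% for RNY3, at least 97.2% for the VTRNA1 genes and at least 99.9% for RMRP, and RPPH1's 2 copies had 0 counts. RN7SK, RN7SL1, RN7SL2, RNY1 and RNY3 are therefore uncertain as single genes. All 10 genes passed the filter on low counts in every comparison, but VTRNA1-1 and RNY3 each fell below 20 counts in 4 of 12 samples and RNY1 in 1. The lowest values were 8 counts for VTRNA1-1 (exact 95% Poisson interval 3.45 to 15.8, counting error only) and 13 for RNY3 (6.92 to 22.2).

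The signal recognition particle RNA genes lie on chromosome 14, RN7SL1 (ENSG00000276168) at chr14:49586580-49586878 within the span of the protein-coding gene RPS29, and RN7SL2 (ENSG00000274012) at chr14:49862551-49862849 overlapping LOC105378179 (GRCh38.p14). RN7SL2 stood at 360 and 388 CPM in mock cells and at 417 and 351 CPM in irradiated cells of batch 1. In batch 2 it stood at 183 and 470 CPM with vehicle and at 171 and 154 CPM with vehicle and IR. With enzalutamide it stood at 542 and 224 CPM, and with enzalutamide and IR at 134 and 144 CPM. All 4 irradiated samples of batch 2 thus lay below all 4 unirradiated ones, the nearest at 171 and 183 CPM, while the groups of batch 1 overlapped. Of the 25370 genes tested in all 3 IR comparisons, 10.2% were lower without overlap against their own unirradiated group in both batch 2 comparisons. VTRNA1-3 was also among them. That condition is looser than all 4 samples below all 4, for which the share of all genes was not counted. In bulk libraries, fewer cells transcribing a gene and less transcription per cell cannot be told apart.

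RN7SL2 was the gene of the 10 that passed the test for IR over all 6 groups, in which each irradiated group was set against its own unirradiated group. It fell by 0.78 on the log2 scale (SE 0.228, 95% interval -1.25 to -0.30, edgeR adjusted p = 0.0397), in a comparison that called 7.6% of 29470 genes and 2.44% as lower. The size of the change moved with the samples of high values: without vehicle replicate 4 the log2 fold change was -0.54 (adjusted p = 0.133), without enzalutamide replicate 3 it was -0.50 (adjusted p = 0.085), and without both it was -0.24 (adjusted p = 0.182). The call was also lost without irradiated replicate 2 of batch 1 or any 1 irradiated sample of batch 2, with log2 fold changes of -0.70 to -0.85 and adjusted p of 0.0505 to 0.118. DESeq2 gave -0.79 (adjusted p = 0.117). The log2 fold change was negative in all 21 alternatives, from -0.24 to -0.94, and passed in 9 of them. These alternatives share most of their samples and are not independent. Within strata the log2 fold change was 0.05 in batch 1 (adjusted p = 0.958), -1.01 in vehicle cells (SE 0.374, adjusted p = 0.339) and -1.43 in enzalutamide cells (SE 0.378, adjusted p = 0.158).

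Like RN7SL2, RN7SL1 was highest within batch 2 in vehicle replicate 4 and enzalutamide replicate 3. It had 132 and 142 CPM in mock cells and 170 and 164 CPM after IR in batch 1. In batch 2 it had 71.4 and 184 CPM with vehicle and 64.8 and 76.9 CPM with vehicle and IR, so these groups overlapped. With enzalutamide it had 185 and 109 CPM and with enzalutamide and IR 62.2 and 79.5 CPM, which did not overlap. The irradiated samples were the higher ones in batch 1 and, on average, the lower ones in batch 2. The log2 fold change with IR was 0.29 in batch 1 (adjusted p = 0.347), -0.86 in vehicle cells (adjusted p = 0.359) and -1.03 in enzalutamide cells (adjusted p = 0.302). Without vehicle replicate 4 and enzalutamide replicate 3 it was -0.002 in vehicle cells and -0.62 in enzalutamide cells. RN7SL2 without those libraries was at -0.16 in vehicle cells and -0.69 in enzalutamide cells. These libraries were picked after their high values were seen. Leaving them out leaves 1 sample in a group, and the spread is then taken from the other groups. P-values of such fits are therefore not given for these 2 genes by stratum. With the low sample of a group left out instead, the falls of both genes were larger. Without vehicle replicate 3, RN7SL1 was at -1.39 and RN7SL2 at -1.54 in vehicle cells. Without enzalutamide replicate 4, RN7SL1 was at -1.34 and RN7SL2 at -1.91 in enzalutamide cells. The ratio of RN7SL2 to RN7SL1 counts ranged from 1.82 to 2.93 over the 12 samples, and the pair held 56.6% to 80.9% of the counts of the 10 genes.

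RN7SK (ENSG00000283293, chr6:52995620-52995951) starts or ends 336 nt from the coding gene GSTA4. Its level was low, at 9.70 and 9.68 CPM in mock cells and 8.03 and 9.96 CPM after IR in batch 1. Vehicle samples had 7.07 and 11.1 CPM and vehicle with IR 6.88 and 7.38 CPM. Enzalutamide samples had 20.2 and 8.04 CPM and enzalutamide with IR 7.98 and 8.76 CPM. Enzalutamide replicate 3 was the highest of all 12, and every pair of groups compared for IR overlapped. No comparison passed: the log2 fold change with IR was -0.10 in batch 1 (adjusted p = 0.921), -0.36 in vehicle cells (adjusted p = 0.707) and -0.77 in enzalutamide cells (adjusted p = 0.465). Without the 2 high libraries the last value was 0.06, and without enzalutamide replicate 4 it was -1.22.

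RMRP (ENSG00000277027, chr9:35657750-35658019, 273 nt from CCDC107) had 109 and 150 CPM in mock cells and 181 in both irradiated samples of batch 1. It had 76.4 and 104 CPM with vehicle and 63.4 and 71.7 CPM with vehicle and IR. With enzalutamide it had 176 and 75.6 CPM and with enzalutamide and IR 59.8 and 91.7 CPM. The irradiated samples were above the mock samples in batch 1 and below the vehicle samples in batch 2, with no overlap in either. The log2 fold change with IR was 0.49 in batch 1 (SE 0.147, adjusted p = 0.141) and -0.42 in vehicle cells (adjusted p = 0.606). In enzalutamide cells it was -0.71 (unadjusted p = 0.0278, adjusted p = 0.445), 0.002 without the 2 high libraries and -1.16 without enzalutamide replicate 4. The difference between batch 1 and vehicle cells was -0.88 (95% interval -1.33 to -0.44, unadjusted p = 0.000617), which did not pass after adjustment (adjusted p = 0.265). It was -1.14 without mock replicate 2, -1.08 without vehicle replicate 3 and -0.63 without vehicle replicate 4. With t2 alone it passed (-1.08, adjusted p = 0.0314). The batch 1 value was 0.73 without mock replicate 2 and 0.28 without mock replicate 1.

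RPPH1 (ENSG00000277209, chr14:20343071-20343411, 224 nt from PARP2) had the smallest SE of the 10 genes in each batch 2 comparison. It had 65.4 and 74.4 CPM in mock cells and 76.5 and 77.7 CPM after IR in batch 1. The vehicle samples had 14.2 and 16.8 CPM and those with vehicle and IR 13.6 and 14.6 CPM. The enzalutamide samples had 18.9 and 18.5 CPM and those with enzalutamide and IR 14.95 and 17.0 CPM. Enzalutamide samples lay above vehicle samples without overlap (background 14.6%). The log2 fold change with enzalutamide averaged over IR was 0.24 (SE 0.0918, unadjusted p = 0.0223, adjusted p = 0.755), the lowest p of the 10 genes for the drug. With IR over all 6 groups it was -0.03 (95% interval -0.18 to 0.13).

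**Figure D2:**
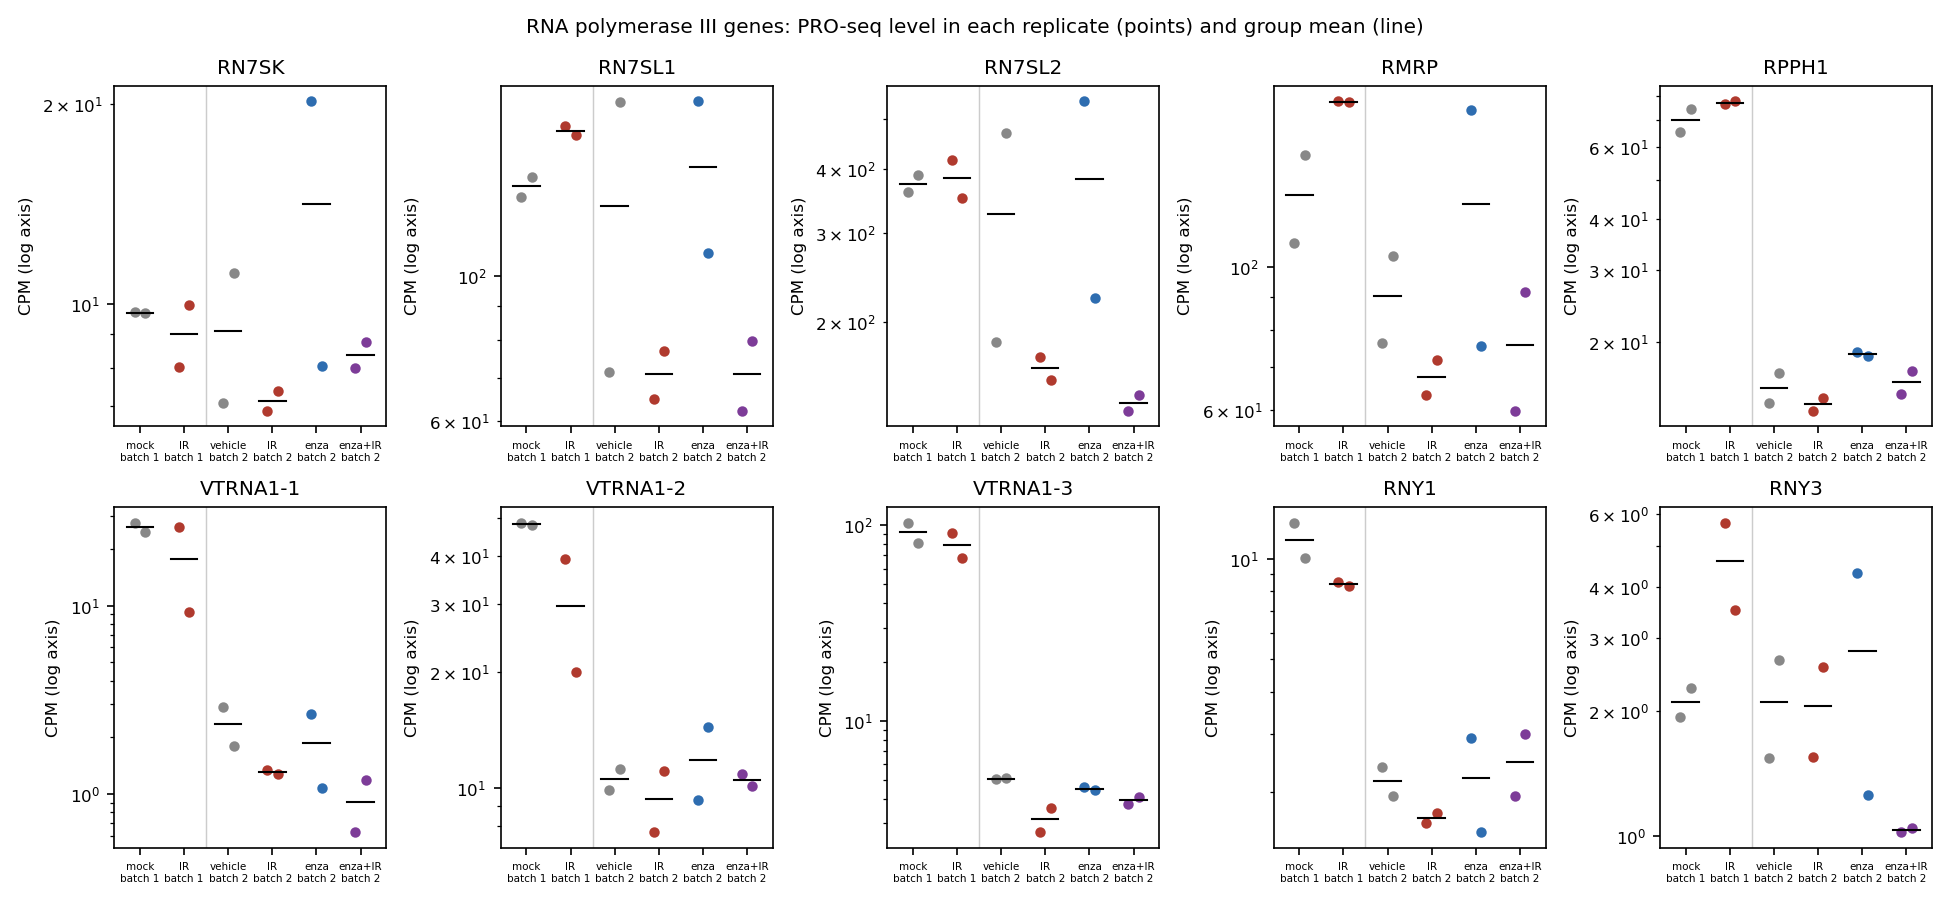
PRO-seq level of the 10 genes in each replicate sample, in CPM on log axes, with a line at each group mean and batch 1 left of the grey line. The irradiated samples of RN7SL2 in batch 2, from 134 to 171 CPM, lie below all 4 unirradiated ones, and enzalutamide replicate 3 is the highest batch 2 sample for RN7SL2, RMRP, RN7SK and RNY3. Of 25370 genes tested in all 3 IR comparisons, 10.2% were lower without overlap against their own unirradiated group in both batch 2 comparisons, a looser condition.

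The 3 vault RNA genes lie in a row on chromosome 5, at chr5:140711276-140711373 (VTRNA1-1, ENSG00000199990), chr5:140718926-140719013 (VTRNA1-2, ENSG00000202111) and chr5:140726159-140726246 (VTRNA1-3, ENSG00000202515), all overlapping LOC105378198. In batch 1, VTRNA1-3 had 103 and 80.9 CPM in mock cells and 91.0 and 67.9 CPM after IR. In batch 2 it had 5.05 and 5.12 CPM with vehicle and 2.70 and 3.62 CPM with vehicle and IR. With enzalutamide it had 4.58 and 4.47 CPM and with enzalutamide and IR 3.76 and 4.10 CPM. It was, with RN7SL2, the gene whose irradiated samples lay below the unirradiated ones in both batch 2 comparisons (2 of 10 genes, background 10.2%). The log2 fold change with IR was -0.69 in vehicle cells (SE 0.220, adjusted p = 0.248) and -0.18 in enzalutamide cells (adjusted p = 0.849), neither past the threshold.

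VTRNA1-2 had 48.6 and 48.0 CPM in mock cells and 39.3 and 20.04 CPM after IR in batch 1, which did not overlap (background 20.7%). Its log2 fold change with IR there was -0.71 (edgeR unadjusted p = 0.00955, adjusted p = 0.185). That value was -1.28 without irradiated replicate 1 and -0.27 without irradiated replicate 2. In batch 2 VTRNA1-2 had 9.92 and 11.2 CPM with vehicle, 7.69 and 11.1 with vehicle and IR, 9.31 and 14.4 with enzalutamide, and 10.9 and 10.1 with enzalutamide and IR. Its batch 2 groups all overlapped. VTRNA1-1 had 27.4 and 24.5 CPM in mock cells and 26.2 and 9.21 CPM after IR in batch 1. Its log2 fold change with IR there was -0.57 (edgeR adjusted p = 0.599). That value was -1.50 without irradiated replicate 1 and 0.04 without irradiated replicate 2. The batch 2 values were 2.91 and 1.81 CPM with vehicle, 1.35 and 1.28 with vehicle and IR, 2.65 and 1.07 with enzalutamide, and 0.626 and 1.18 with enzalutamide and IR. These last values rest on 8 to 52 counts. IR over all 6 groups gave VTRNA1-1 a log2 fold change of -0.69 (SE 0.246, adjusted p = 0.0927), VTRNA1-2 one of -0.35 (adjusted p = 0.176) and VTRNA1-3 one of -0.29 (adjusted p = 0.113). These values depended on the batch 1 libraries. With t1 alone they were -0.11, 0.21 and 0.18, none past the threshold. With t2 alone they were -1.59 (adjusted p = 0.00232), -0.87 (adjusted p = 0.0997) and -1.11 (adjusted p = 0.0151). Without irradiated replicate 1 of batch 1, VTRNA1-1 was at -1.22 (adjusted p = 0.000885) and VTRNA1-3 at -0.45 (adjusted p = 0.0192), and without mock replicate 2 VTRNA1-3 was at -0.42 (adjusted p = 0.0341).

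The Y RNA genes lie near each other on chromosome 7, RNY3 (ENSG00000202354) at chr7:148983755-148983856 and RNY1 (ENSG00000201098) at chr7:148987136-148987248. RNY1 had 12.8 and 10.0 CPM in mock cells and 8.51 and 8.27 CPM after IR in batch 1. Batch 2 gave 2.38 and 1.96 CPM with vehicle, 1.62 and 1.73 with vehicle and IR, 2.90 and 1.52 with enzalutamide, and 1.96 and 2.99 with enzalutamide and IR. RNY1 was the gene whose log2 fold change with IR in enzalutamide cells was above 0, at 0.13 (95% interval -0.58 to 0.84). RNY3 was the lowest of the 10 genes per length. RNY3 had 1.94 and 2.28 CPM in mock cells and 5.70 and 3.51 CPM after IR in batch 1. Batch 2 gave 1.54 and 2.66 CPM with vehicle, 1.55 and 2.56 with vehicle and IR, 4.33 and 1.25 with enzalutamide, and 1.02 and 1.04 with enzalutamide and IR. Its log2 fold change with IR was 1.10 in batch 1 (SE 0.330, adjusted p = 0.139) and -1.51 in enzalutamide cells (SE 0.514, adjusted p = 0.352), on 13 to 85 counts a sample. The latter was -0.28 without the 2 high libraries and -2.01 without enzalutamide replicate 4. The batch 1 value was 0.99 without mock replicate 1 and 1.22 without mock replicate 2. It was 0.71 without irradiated replicate 1 and 1.44 without irradiated replicate 2. The t1 library of irradiated replicate 1 had 8.21 CPM for RNY3, on 64 counts, while the other batch 1 libraries had 1.09 to 3.43 CPM.

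The 10 genes as a set gave 0 calls by edgeR for IR in batch 1, where 2.82% of genes were called. They gave 0 in vehicle cells (background 1.1%) and 0 in enzalutamide cells (background 0.918%), and DESeq2 also called 0 in each. At an unadjusted p under 0.05, 3 were higher (background 6.06%) and 2 lower (background 5.41%) in batch 1, 3 were lower in vehicle cells (background 5.87%) and 6 were lower in enzalutamide cells (background 4.92%). The median log2 fold change of the 10 was -0.02 in batch 1, -0.39 in vehicle cells and -0.74 in enzalutamide cells, where the median of all genes tested was -0.002, -0.006 and -0.01. All 10 were below 0 in vehicle cells and 9 of 10 in enzalutamide cells, whereas 5 of 10 were below 0 in batch 1. Without the 2 high libraries, 8 of 10 were below 0 in vehicle cells, with a median of -0.12, and 7 of 10 in enzalutamide cells, with a median of -0.22. Irradiated and unirradiated samples did not overlap for 5 of 10 genes in vehicle cells, all lower (background 22.6%), and for 5 of 10 in enzalutamide cells, all lower (background 20.9%). In batch 1, 4 genes were higher without overlap (background 19%) and 2 lower (background 20.7%).

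Over all 6 groups, 6 of 10 genes had an unadjusted p under 0.05, all lower, where 9.46% of all genes did. The median log2 fold change was -0.32 against 0.005 for all genes. Without vehicle replicate 4 and enzalutamide replicate 3, 0 of 10 were called, and RMRP, RPPH1 and RNY3 had log2 fold changes above 0, at 0.15, 0.009 and 0.62. The effect of IR did not differ between batches for any of the 10 at the threshold (edgeR 0 of 10, DESeq2 0 of 10, background 0.106%), although 4 had an unadjusted p under 0.05, all lower (background 3.79%). Those 4, with a more negative effect in vehicle cells of batch 2 than in batch 1, were RMRP, RN7SL1 at -1.12, RN7SL2 at -1.03 and RNY3 at -1.14 on the log2 scale. Without vehicle replicate 4, RN7SL1 was at -0.27, RN7SL2 at -0.18 and RNY3 at -0.67. Without vehicle replicate 3, RN7SL1 was at -1.63 and RN7SL2 at -1.54. These fits leave 1 vehicle sample, so their p-values are not given.

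**Figure D3:**
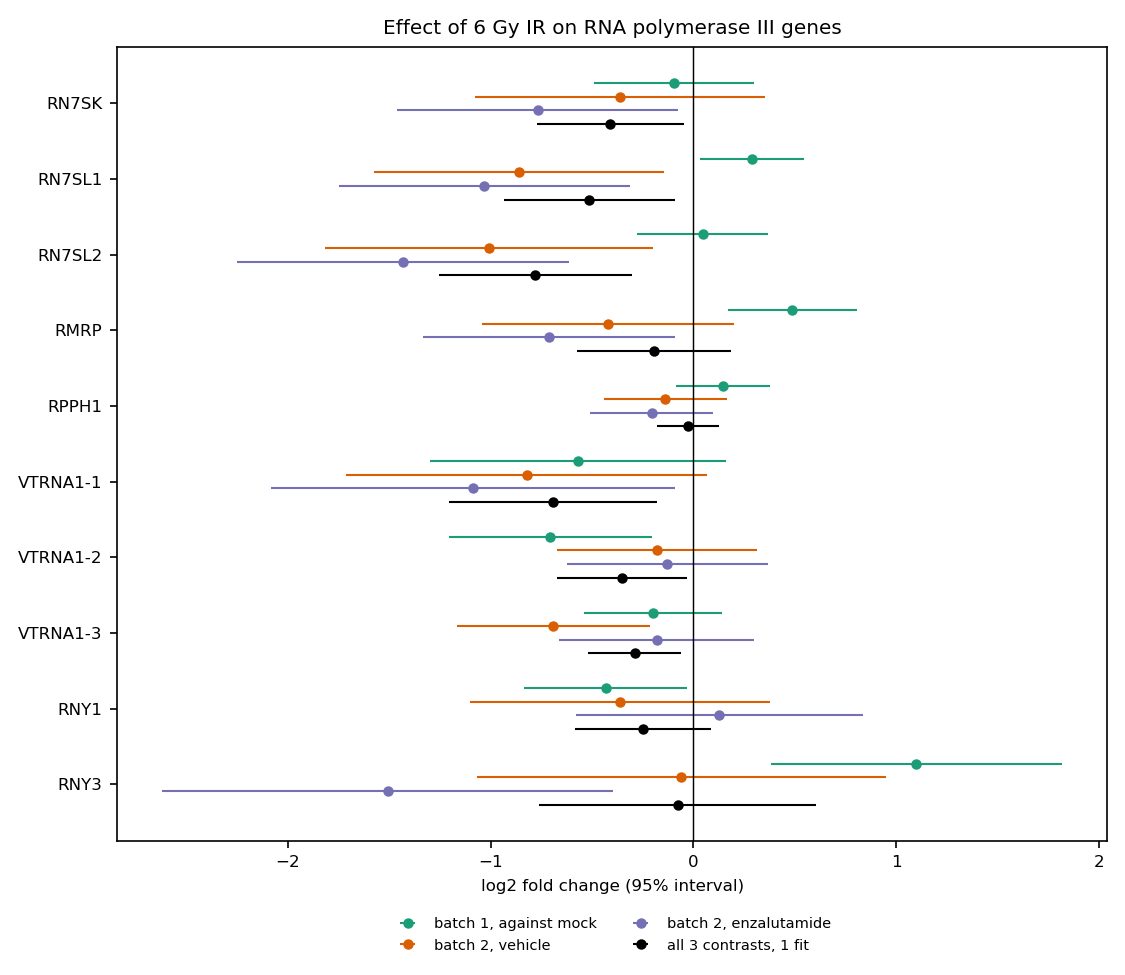
Log2 fold change with IR for the 10 genes, with 95% intervals, in batch 1, in vehicle cells and in enzalutamide cells of batch 2, and over all groups. Values in vehicle cells are all below 0, from -1.01 to -0.06, while those in batch 1 lie on both sides, from -0.71 to 1.10.

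Enzalutamide was tested without IR, with IR and averaged over IR. None of the 10 genes passed by edgeR in these comparisons (backgrounds 0.0105%, 0.0105% and 0.0628%) or by DESeq2, and 1, RPPH1, had an unadjusted p under 0.05 for the average, higher (background 3.19%). With and without IR, 0 of 10 had one (backgrounds 3% and 2.56%). The median log2 fold change averaged over IR was 0.13, with 8 of 10 above 0, against 0.0008 for all genes. Without enzalutamide replicate 3 it was 0.05, with 6 of 10 above 0. The widest interval for the average belonged to RNY3, at -0.86 to 0.74, and the narrowest to RPPH1, at 0.04 to 0.43. Replicate 3 of enzalutamide without IR was 2.12 times as high as replicate 4 by the median of the 10 genes, with RNY3 at 3.46 and RN7SK at 2.51 times. The same ratio was 0.887 for the other Pol III transcripts, 1.54 for short RNA genes of Pol II and 1.02 for all genes. What sets replicate 3 apart was not tested.

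Enzalutamide with IR against vehicle gave 0 of 10 calls by edgeR and by DESeq2 (background 1.52%), with 3 genes at an unadjusted p under 0.05, all lower (background 8.56%). They were RN7SL2 at -1.22 (adjusted p = 0.132), VTRNA1-1 at -1.32 (adjusted p = 0.159) and RN7SL1 at -0.84 (adjusted p = 0.219). Without vehicle replicate 4, RN7SL2 was at -0.36, VTRNA1-1 at -1.63 and RN7SL1 at 0.02. Without vehicle replicate 3, RN7SL2 was at -1.75, VTRNA1-1 at -0.97 and RN7SL1 at -1.37. These fits leave 1 vehicle sample, so their p-values are not given. The interaction, which asks whether the effect of IR differed with the drug, called 0 genes (0%) of all 28651 tested and had 0 of the 10 at an unadjusted p under 0.05 (background 1.2%, DESeq2 0 of 10). RNY3 had the largest interaction at -1.45 (95% interval -2.97 to 0.07), and -0.22 without enzalutamide replicate 3. Comparisons in batch 2 share samples, so their values are not independent.

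**Figure D4:**
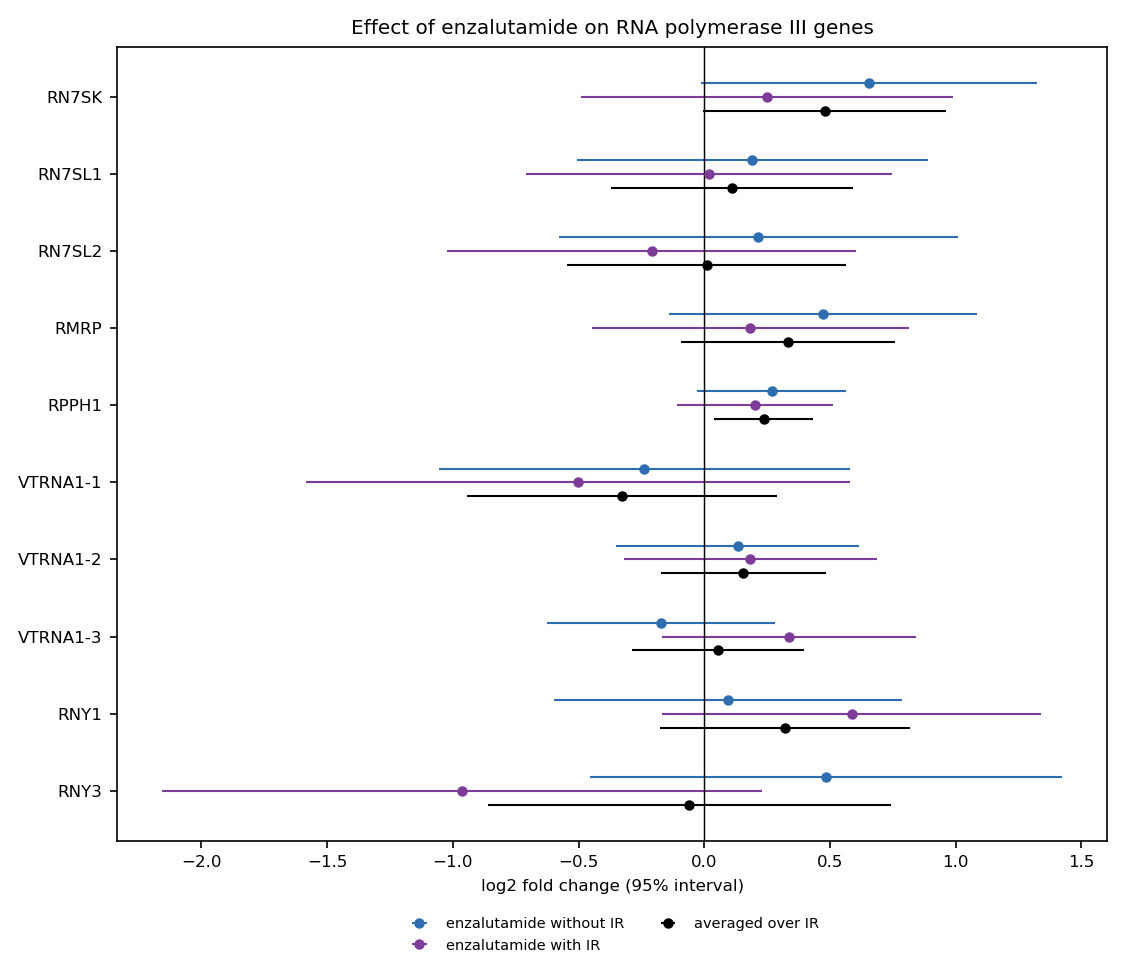
Log2 fold change with enzalutamide for the 10 genes, with 95% intervals, without IR, with IR and averaged over IR. Most intervals span 0, and that of RPPH1 for the average, from 0.04 to 0.43, lies above it with an adjusted p of 0.755.

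The t1 and t2 libraries of batch 1 split the 10 genes. In both irradiated replicates all 10 had lower CPM in t2 than in t1, whereas in the mock replicates 5 and 3 of 10 did. The share of all genes was not counted for single replicates. In the fit of t2 against t1 over both treatments, 8 of 10 were below 0, where 52.2% of all genes were. For the difference of that ratio between irradiated and mock cells, 7 of 10 were below 0, where 52.8% of all genes were. VTRNA1-2 had 21.6 and 17.2 CPM in the t1 libraries and 64.3 and 88.8 CPM in the t2 libraries of mock cells, and 53.8 and 24.5 CPM in t1 and 14.4 and 15.03 CPM in t2 of irradiated cells. The order of t1 and t2 was thus opposite in the 2 treatments. VTRNA1-3 had 89.8 and 42.7 CPM in t1 and 104 and 129 CPM in t2 of mock cells, and 122 and 119 CPM in t1 and 36.7 and 22.7 CPM in t2 of irradiated cells. The mitochondrial shares also had opposite orders in the 2 treatments: irradiated t1 libraries held 2.87% and 2.86% and t2 libraries 5.38% and 4.47%, while mock t1 libraries held 4.25% and 5.06% and t2 libraries 3.24% and 3.94%. Their part in the result was not tested.

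In a test of this difference, chosen after the data were seen, the t2-to-t1 log2 ratio was lower in irradiated than in mock cells for 4 of 10 genes, where 20.7% of all genes were called lower. The values were -3.17 for VTRNA1-2, -2.86 for VTRNA1-3, -2.75 for VTRNA1-1 and -1.11 for RPPH1. RN7SK, RN7SL1, RN7SL2 and RMRP were between -0.05 and 0.40. The log2 fold change between irradiated and mock cells of batch 1 for the vault RNA genes and RPPH1 therefore depended on the library used. The labels do not say whether t1 means the same in both treatments. An effect of IR and a difference between libraries cannot be told apart in these values. With t1 alone, where 3994 genes of all were called, the log2 fold change was 0.99 for VTRNA1-2 (adjusted p = 0.0178), 0.85 for VTRNA1-3 (adjusted p = 0.0133) and 0.68 for RPPH1 (adjusted p = 0.00477). With t2 alone, where 9800 genes were called, it was -2.30 for VTRNA1-2 (adjusted p = 3.54e-07), -1.96 for VTRNA1-3 (adjusted p = 3.63e-06), -2.23 for VTRNA1-1 (adjusted p = 5.47e-06) and -0.42 for RPPH1 (adjusted p = 0.0148). RN7SL2 gave -0.04 with t1 and -0.19 with t2, neither past the threshold.

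**Figure D5:**
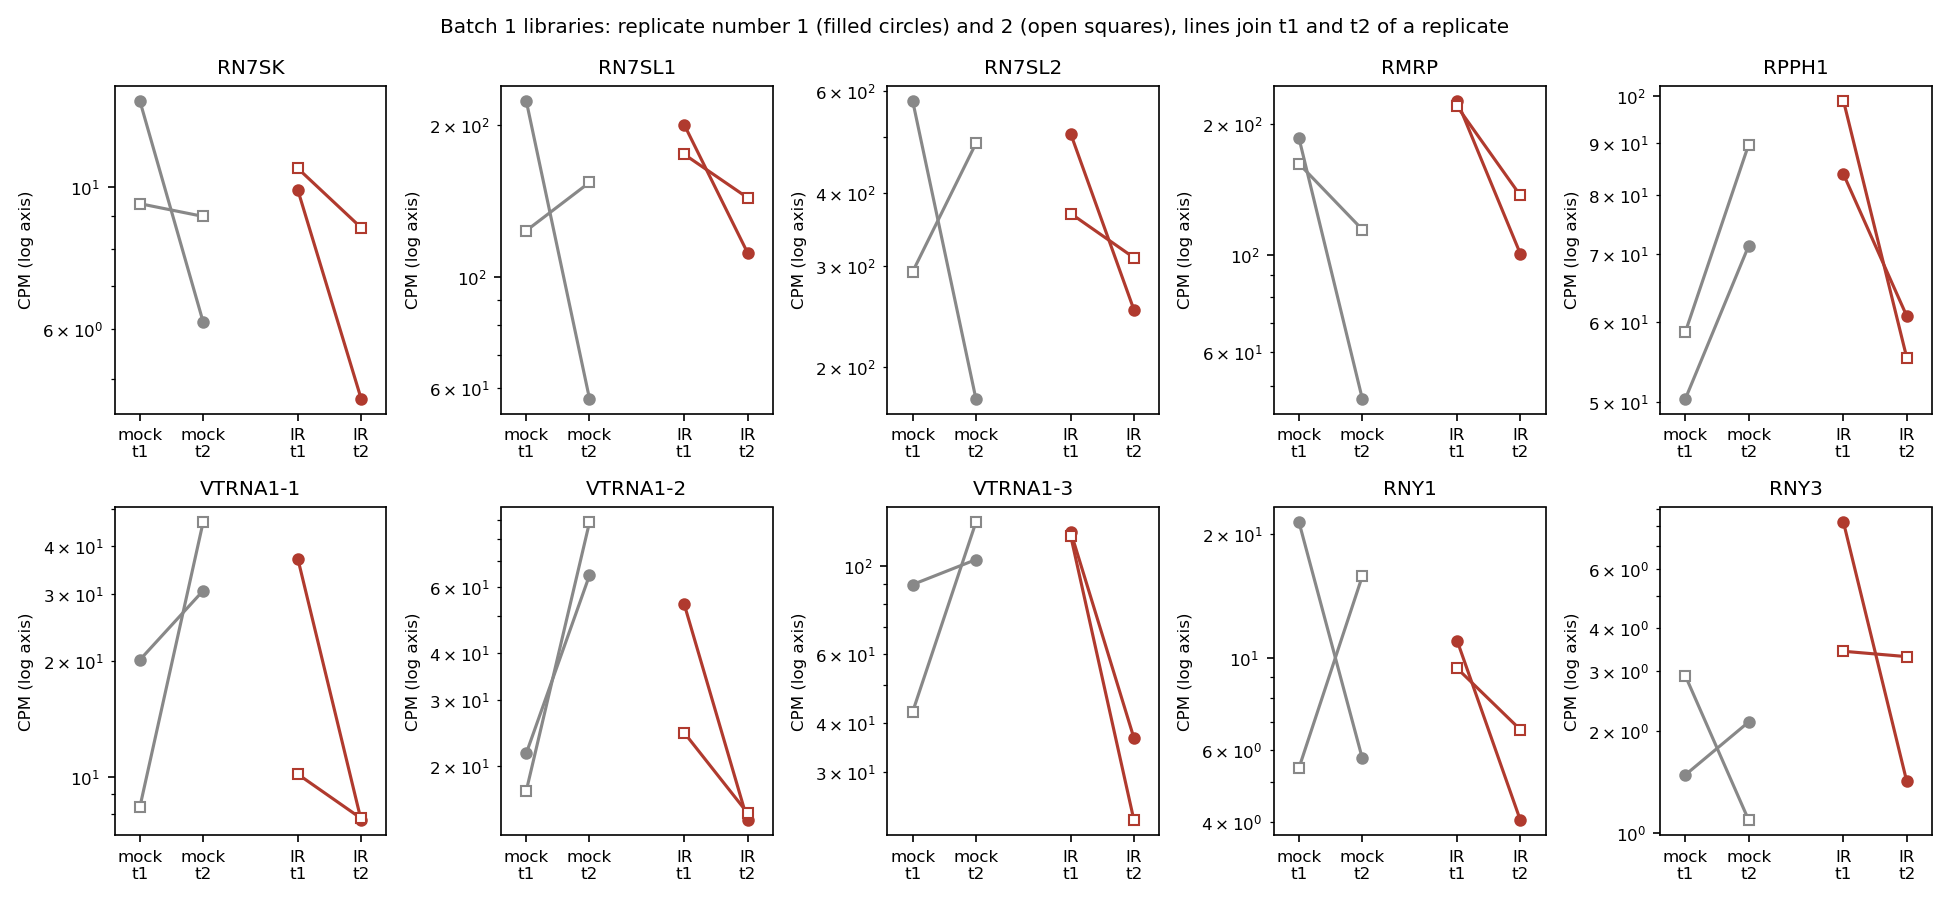
CPM of the 10 genes in the t1 and t2 libraries of each batch 1 replicate on log axes, with lines joining libraries of 1 replicate. For VTRNA1-2 the lines run upward in mock cells, from 21.6 to 64.3 and from 17.2 to 88.8 CPM, and downward in irradiated cells.

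Other genes of the pathway were read from lists. Of other Pol III transcripts, among them 5S ribosomal RNA copies, 0 were higher and 6 of 22 lower with IR over all 6 groups, with a median of -0.33 and all 22 below 0. Of all genes tested, 5.16% were called higher and 2.44% lower, with a median of 0.005. RNA5S17 fell by 0.50 (adjusted p = 0.000199), RNA5S6 by 0.40 (adjusted p = 0.0144) and RNA5S1 by 0.38 (adjusted p = 0.00777). In enzalutamide cells 6 of 20 were lower, where 0.293% of all genes were, with RNA5S8 at -0.70, RNA5S1 at -0.54 and RNA5S11 at -0.53. The RNA5S copies are near-identical, so reads could be split between them and they are not independent. In the t1 and t2 comparison 19 of 21 had a lower t2-to-t1 ratio in irradiated cells, with a median of -3.02, where 20.7% of all genes did and their median was -0.07. Short RNA genes of Pol II, such as U small nuclear RNA genes, had 1 of 16 lower with IR over all 6 groups, RNU4-1 at -0.48 (adjusted p = 0.0135), with 15 of 16 below 0 and a median of -0.22. In the t1 and t2 comparison 15 of 16 of these were lower, with a median of -1.53.

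The genes of the Pol III machinery were read in the same way. Of 18 Pol III subunit genes, 2 rose with IR over all 6 groups (all genes 5.16%), POLR2L at 0.44 (adjusted p = 5.83e-05) and POLR1C at 0.28 (adjusted p = 0.00285), both of which serve more than 1 polymerase. POLR2L also rose in batch 1, by 0.53 (adjusted p = 0.0257), as 1 of 18 where 2% of all genes were called higher. Of 18 initiation factor genes and MAF1 tested, 0 passed by edgeR with IR over all 6 groups, where 7.6% of all genes did. Of 28 genes for protein partners of the RNAs, 2 rose, a share near the 5.16% of all genes. They were POP1, a subunit of RNase P and RNase MRP, at 0.28 (adjusted p = 0.00288) and SRP68, a signal recognition particle protein, at 0.23 (adjusted p = 0.0172). In the comparisons of enzalutamide without IR, with IR and averaged over IR, 0 genes of any of these lists passed by edgeR. POLR2L was higher with enzalutamide and IR than with vehicle, by 0.50 (adjusted p = 0.0269). The coding genes nearest to RN7SK, RN7SL1, RMRP, RPPH1 and VTRNA1-1, which are GSTA4, RPS29, CCDC107, PARP2 and ZMAT2, did not pass in any IR or enzalutamide comparison. With IR over all 6 groups their log2 fold changes ran from -0.16 (CCDC107) to 0.10 (ZMAT2), and RPS29, whose span holds RN7SL1, stood at 0.10 (adjusted p = 0.367).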

How the data were processed

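The deposited tables, 1 per batch, hold whole-number read counts per Ensembl gene identifier, judged from the values. Per the submitters' processing notes, cutadapt 1.8.1, Bowtie2 2.4.4, SAMtools 1.9 and the build hg38 were used. The counting tool, annotation release, use of strand and treatment of reads with several matches are not given in the sources used here, so genes that overlap or have near-identical copies are uncertain. Of 60605 identifiers, 60463 (99.8%) matched a gene name. Batch 1 libraries t1 and t2 of a replicate number were summed.

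Counts were tested with edgeR 4.0.16 (R 4.3.3): filterByExpr with its default minimum of 10 counts, TMM factors, and the quasi-likelihood test, two-sided. P-values were adjusted by the Benjamini-Hochberg method over all genes of a comparison, with a threshold of 0.05. All 8 batch 2 samples shared 1 model. IR over all 6 groups used all 12 samples, with batch 1, vehicle and enzalutamide cells as strata. CPM values were TMM-scaled over the 12 samples, or over the 8 batch 1 libraries where t1 and t2 are shown. Alternatives were other scalings, no filter, DESeq2 1.42.0, a replicate block, summed paralogs, t1 or t2 alone and replicates left out.

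The members and lists were chosen with earlier results of these data known. Named genes are the members, at most 3 genes of each list with the smallest p in a comparison, coding neighbours within 5 kb, CDKN1A and TMPRSS2. On simulated counts with 200 genes changed 2-fold, the test recovered 83% for IR in batch 1 (25350 genes) and 81.5% in vehicle cells (28120). It recovered 98.5% for enzalutamide averaged over IR (28098) and 100% over all 6 groups (28613). The share was 28% for the difference between batches (28430) and 21.5% for the t1 and t2 comparison (22801). The changed genes had a mean of at least 50 counts, and every gene was given the same spread. Median counts were 24.5 for RNY3, 41.5 for RNY1 and 42.5 for VTRNA1-1, and RN7SL2 with vehicle stood at 183 and 470 CPM. Recovery at the depth and spread of the 10 genes was not simulated, so these shares do not describe them.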

Additional observations from a re-analysis of the deposited data

Results flagged for a closer look

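In 4 of the 10 genes the log2 fold change between irradiated and mock cells of batch 1 differed between the t1 and t2 libraries. The edgeR test of that difference within replicates (n = 2 per treatment) was chosen after seeing the data. An effect of IR and a difference between libraries cannot be told apart in it. The log2 difference, t2-to-t1 in irradiated minus mock cells, was -1.11 for RPPH1 (adjusted p = 0.000431), -2.75 for VTRNA1-1 (adjusted p = 0.000628), -3.17 for VTRNA1-2 (adjusted p = 6.46e-06) and -2.86 for VTRNA1-3 (adjusted p = 1.81e-05). With DESeq2, VTRNA1-1 gave -2.73 (adjusted p = 0.0743). DESeq2 called 3 of the 10 and 4546 genes in all, where edgeR called 9529 in all. The 3 vault RNA genes summed gave -2.97 (adjusted p = 8.72e-06). By edgeR the same comparison called 40.8% of all genes tested in either direction, which is near 4 of 10. All 4 were called lower, and 20.7% of all genes were called lower.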

How the results depend on the processing

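Depth limits VTRNA1-1, RNY1 and RNY3, and 2 replicates per group limit all results. Of 1750 values for the 10 genes under alternatives, 1531 kept their direction and side of the threshold, 86 newly passed (27 of them with no filter), 13 no longer passed, 115 changed sign without passing in either fit, and 5 reversed. The reversed ones were IR in batch 1 with t1 alone for VTRNA1-2 (0.99) and VTRNA1-3 (0.85) and with t2 alone for RPPH1 (-0.42), and the difference of IR between batches with t2 alone for VTRNA1-1 (1.41) and VTRNA1-3 (1.26). Where a sample left out leaves 1 in a group, that sample is assumed to vary like the others. Calls from such fits rest on the spread of the other groups. This also holds without the 2 high libraries, which were picked after their values were seen.

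The number of the 10 genes called for IR in batch 1 was 0, and 4 with no filter, 3 with t1 alone, 4 with t2 alone and 1 to 4 with a replicate left out. For IR in vehicle cells it was 0, and 3 with no filter and 0 to 2 with a replicate left out. For IR in enzalutamide cells it was 0, and 5 with no filter, 2 without the 2 high libraries and 0 to 5 with a replicate left out. For enzalutamide with IR against vehicle it was 0, and 3 with no filter, 1 without the 2 high libraries and 0 to 2 with a replicate left out. Enzalutamide without IR gave 1 and its average over IR 2 with no filter. For IR over all 6 groups it was 1, and 0 with total counts, with DESeq2, with paralogs summed, with t1 alone and without the 2 high libraries, 2 with t2 alone, 7 with no filter, and 0 to 3 with a replicate left out. The difference between batches gave 0, and 3 with no filter, 1 with t1 alone, 4 with t2 alone and 0 to 3 with a replicate left out. The t1 and t2 comparison gave 2 of its features with paralogs summed, where 3 vault RNA genes become 1. Causes were not tested. The number of all genes called moved with these settings too, as given below, so these counts alone do not set the 10 genes apart. RN7SL2 over all 6 groups had an adjusted p of 0.0535 with total counts, 0.0742 with t1 alone and 0.0864 with t2 alone.

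With the replicate number as a block, 5 of the 10 genes were called for IR in batch 1, 2 in vehicle cells, 2 in enzalutamide cells, 3 for enzalutamide with IR against vehicle, 4 over all 6 groups and 1 for the difference between batches. Same-numbered samples deviated together with correlations across genes of 0.0977 to 0.244 in batch 2 and 0.146 in batch 1. With 2 pairs per comparison and no label on what a number shares, the pairing is not established.

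Over all genes, IR in batch 1 called 731 genes, and 1157 with no filter, 2332 with the replicate block, 3994 with t1 alone and 9800 with t2 alone. IR over all 6 groups called 2241, and 4216 with the block, 1433 with t1 alone, 1337 with t2 alone and 1455 without the 2 high libraries. With the block, IR in vehicle cells called 1315 genes in place of 314 and IR in enzalutamide cells 950 in place of 263. With no filter, IR over all 6 groups called 2631 genes. With t2 alone, the difference between batches called 5643 genes in place of 31.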

Other observations

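The 3 genes outside the set whose profile was most like the mean of the 10, by Pearson r of log2 CPM centred within batch over 12 samples, were the mitochondrial transfer RNA gene MT-TL1 (r = 0.93), RIMOC1 (r = 0.926) and OAT (r = 0.907), of 15935 genes with a mean of at least 50 counts. This is a description of these samples, in which the highest mean profiles were those of enzalutamide replicate 3 and vehicle replicate 4.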
